A study of Homo sapiens with 10 samples.

Results

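The 8 mRNAs described here, PABPC1, PABPC4, TPT1, NAP1L1, NPM1, VIM, NACA and BTF3, belong to or are often listed with the TOP mRNAs, whose 5' end is a terminal oligopyrimidine tract, but encode neither ribosomal proteins nor the core translation factors. They were taken by gene symbol from count files that list 39472 symbols, and each was followed in its 5' leader, coding sequence (CDS) and 3'UTR, which gives 24 features (a gene in 1 part). Of these, 21 had enough counts to be tested, among them all 8 leaders and all 8 CDS. The 3'UTRs of PABPC1, PABPC4 and NACA did not.

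The counts come from enhanced crosslinking and immunoprecipitation (eCLIP), in which ultraviolet light ties a protein to its RNA and the bound RNA fragments are sequenced. All libraries were made from HEK 293T cells, an established human embryonic kidney line, that carry eIF4A with a FLAG tag; eIF4A is the helicase that opens the 5' end of an mRNA for the ribosome. Cells received silvestrol at 20 nM, CR-1-31-B at 20 nM or the vehicle DMSO for 1 h (3 anti-FLAG libraries each, numbered 1 to 3), and 1 input library was made without antibody. Whether the line is 1 clone, and whether untagged eIF4A remained, was not given in the sources used here. No library measures the RNA itself under each treatment, and less RNA of a gene and less binding cannot be told apart where a single part is compared. Values were scaled to each library, so a change common to all features would not show. Anti-FLAG libraries held 858733 to 1804732 counts and the input 2193699. Of the markers examined, PAX2 and INA, which this line is known to express, had 13 to 37 and 11 to 51 counts in the anti-FLAG libraries, while the blood marker PTPRC had 0 to 2 and the liver marker ALB 0 to 1; the fibroblast marker COL1A1 had 24 to 78.

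A TOP mRNA begins with a C followed by a run of pyrimidines directly at the cap. The tract makes translation of the mRNA depend on growth signals: when the kinase mTORC1 is inactive, the protein LARP1 binds the cap and the tract and keeps the mRNA out of translation. Most TOP mRNAs encode ribosomal proteins and elongation factors. Rocaglates such as silvestrol and the synthetic CR-1-31-B clamp eIF4A onto RNA, with a preference for stretches of purines.

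The sequences at the annotated transcription starts show which members carry such a tract. The RefSeq promoter table (GRCh38.p14) matched 6 of the 8 symbols, without PABPC1 and PABPC4, and holds 2 starts for NPM1. Each window runs from 10 bases before to 20 bases from the start onward, 5′ to 3′ on the gene's strand, and capitals mark the run of pyrimidines or of purines that begins at the start.
TPT1: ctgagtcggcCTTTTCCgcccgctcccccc
NAP1L1: gctcttgggtCTTTTTTagcgccatctgct
NACA: ctcgctcggtCTTTCTgccgccatcttggt
BTF3: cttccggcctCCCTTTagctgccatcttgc
NPM1, downstream start: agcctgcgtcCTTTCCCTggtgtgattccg
NPM1, upstream start: agctctcttaGGGcgatgtccttgctaatt
VIM: atcgtgatctGGGAGGcccacgtatggcgc

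The windows lie at chr13:45341164-45341193 (minus strand) for TPT1, chr12:76084666-76084695 (minus) for NAP1L1, chr12:56725280-56725309 (minus) for NACA, chr5:73498432-73498461 (plus) for BTF3, chr5:171387839-171387868 and chr5:171387106-171387135 (plus) for NPM1, and chr10:17228231-17228260 (plus) for VIM. A start of C followed by at least 4 pyrimidines was found at 1 or more starts of 5 of the 6 members, in runs of 6 to 8 pyrimidines. Of all promoters 4.07% have it. Counted by gene, where 1 such start is enough as for the members, 5.14% of 27305 genes and 74.6% of 63 ribosomal protein genes with a promoter do. VIM, which encodes the intermediate filament protein vimentin, begins with a run of 6 purines at its annotated start. The first 50 transcribed bases of TPT1, NAP1L1, NACA and BTF3 hold no purine run longer than 3, and 97.5% of all promoters have a run at least that long. For VIM the longest run is 6, which 47.3% of promoters reach. These are genomic letters at annotated starts, and the start used in these cells was not measured.

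The DMSO libraries were set against the input to see which parts of these mRNAs held more of the reads after anti-FLAG selection. No dose or time is given for the input in the sources used here. None of the 10 libraries is an anti-FLAG library from untagged cells. The leader share, meaning the leader's part of a gene's leader, CDS and 3'UTR counts, was higher in all 3 DMSO libraries than in the input for 8 of 8 members. Among 3478 genes with at least 50 such counts in the input and in each DMSO library, 76.4% met the same rule. The single input library gives no spread, so no test was made, and its intervals (95%, exact Clopper-Pearson) cover counting error only. They also treat reads as independent molecules, which is uncertain because duplicate handling was not given.

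PABPC1 encodes the cytoplasmic poly(A)-binding protein, which binds mRNA tails and contacts the cap-binding complex. Its leader took 80.0%, 76.2% and 74.3% of its counts in DMSO libraries 1 to 3, against 43.8% in the input (interval 39.7% to 47.9%). The leader of PABPC4, a second cytoplasmic poly(A)-binding protein, took 66.0%, 87.8% and 70.9% in DMSO, against 35.1% in the input (29.6% to 40.9%). These mRNAs, with BTF3, had the highest leader shares of the members, and each stood above at least 96.8% of the genes by DMSO share.

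The nascent polypeptide-associated complex, which meets new protein chains at the ribosome exit, is formed by the products of NACA and BTF3. The BTF3 leader held 65.5%, 83.9% and 73.7% of its gene's counts in DMSO, against 35.7% in the input (28.5% to 43.5%). The NACA leader held 32.8%, 34.2% and 22.7% in DMSO, against 17.0% in the input (12.5% to 22.3%). NACA had the lowest leader share of the 8 members. Its difference of DMSO from the input, 12.9 percentage points, was near the median of all genes (14.1), and that of BTF3 was 38.7 points.

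The histone chaperones NPM1 and NAP1L1 had large differences as well. The leader share of NPM1, which encodes nucleophosmin of the nucleolus, was 71.9%, 56.2% and 57.7% in DMSO, against 21.8% in the input (16.5% to 27.9%). For NAP1L1 it was 32.0%, 53.7% and 38.7% in DMSO, against 11.9% in the input (8.25% to 16.3%). TPT1, which encodes the translationally controlled tumour protein, had 40.5%, 43.6% and 44.4% in DMSO, against 11.6% in the input (9.16% to 14.3%). VIM had 46.5%, 52.7% and 30.8% in DMSO, against 12.0% in the input (8.65% to 16.0%).

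**Figure D1:**
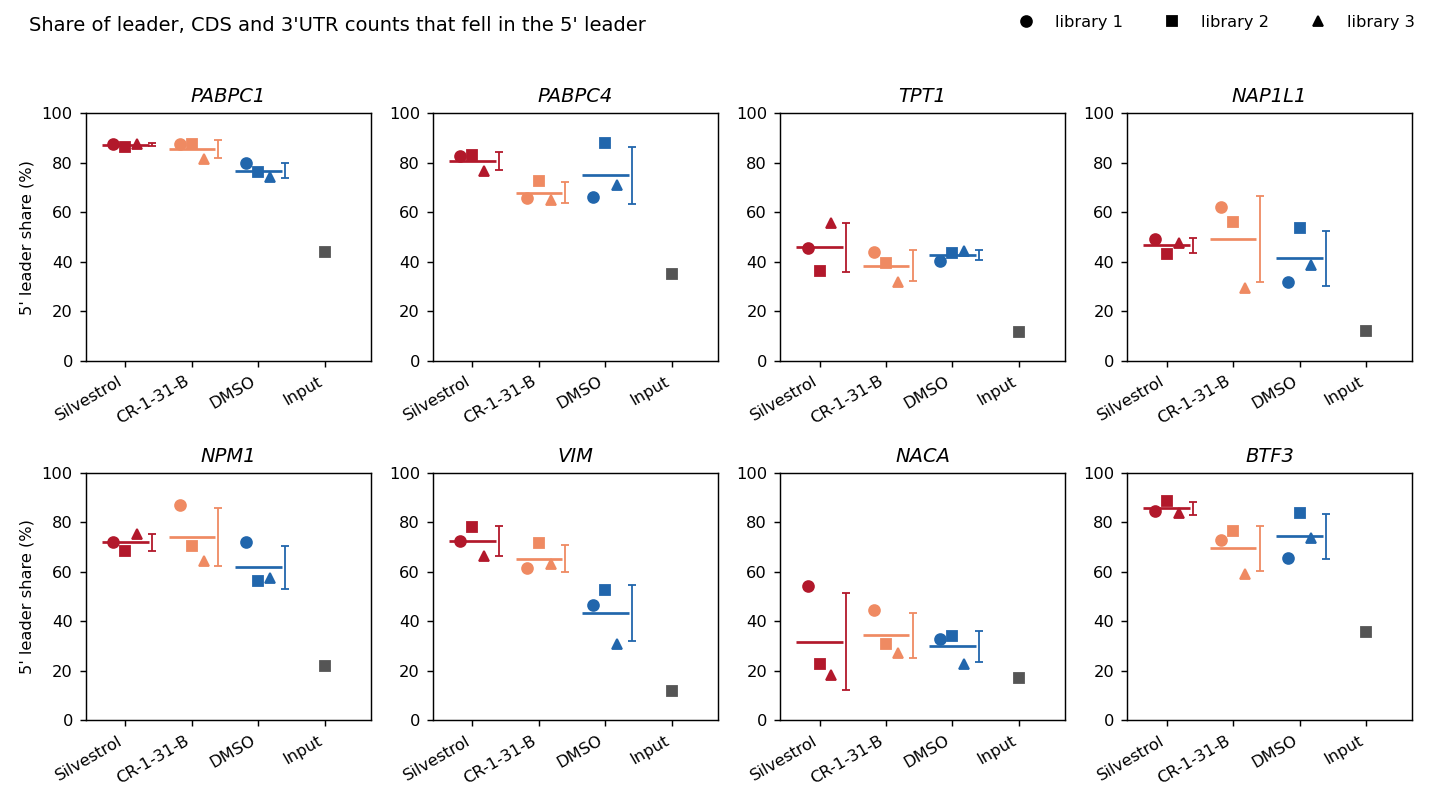
Share of each gene's leader, CDS and 3'UTR counts that fell in the 5' leader (y axis, percent), with 1 panel per gene, 1 point per library shaped by its number, horizontal lines for group means and error bars of 1 SD (n = 3; the input is 1 library). In DMSO all 8 members lie above the input, and the rocaglate libraries of PABPC1 and VIM all lie above their DMSO libraries.

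In CPM, the count of a feature scaled to a fixed library total, the member leaders were 2.92 (NACA) to 6.55 (NAP1L1) times the input in DMSO. All 8 reached 2-fold, as did 79.1% of the 7122 tested leaders, and the median ratio was 4.83 for the members and 3.94 for all tested leaders. For lists described below it was 7.07 (abundant mRNAs listed as non-TOP), 6.41 (ribosomal proteins) and 4.64 (TOP translation factors). It was 4.15 for paralogs of the members and 3.92 for genes that act on TOP mRNAs. No member CDS reached 2-fold, where 17.3% of all CDS did. The CDS ratio ran from 0.608 (VIM) to 1.43 (NACA), beside a median of 1.09 for all CDS. The 3'UTRs of the members had ratios of 0.587 (BTF3) to 1.70 (NPM1) and did not reach 2-fold in any case, where 10.4% of all 3'UTRs did.

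Silvestrol against DMSO asks whether this rocaglate placed relatively more eIF4A on the member mRNAs. No member feature passed the threshold (an adjusted p under 0.05 over all features in edgeR's quasi-likelihood test), where 0.255% of the 24713 tested features did. At an unadjusted p under 0.05 were 2 of the 21 member features, the VIM leader and the PABPC1 CDS, and 1999 of all features. DESeq2 and limma voom called 0 member features in this and in each other rocaglate contrast. The median log2 fold change of the 8 member leaders was 0.06, and that of all 7122 leaders was 0.40. Of the members, 2 lay above that median, VIM and BTF3. With TMM-scaled CPM, no member leader had its 3 silvestrol libraries all above the 3 DMSO libraries, as 19.0% of all leaders did, and none had them all below, as 2.16% did.

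The VIM leader had 220, 201 and 101 CPM in silvestrol libraries 1 to 3, against 84.2, 115 and 36.6 CPM in DMSO libraries 1 to 3. The silvestrol libraries overlapped the DMSO libraries only through silvestrol library 3, which lay below DMSO library 2. Its log2 fold change was 1.15 (SE 0.43, 95% interval 0.26 to 2.04, edgeR adjusted p = 0.402), so it was not called. Paired by library number, the VIM leader stood at 2.61, 1.76 and 2.75 times its DMSO value, higher in 3 of 3 pairs. The share of all leaders with the same direction in 3 of 3 pairs was not counted, here or for the pairs given below. With the replicate number as a block the VIM leader was called (log2 1.20, SE 0.28, edgeR adjusted p = 0.0302), in a fit that called 1.28% of all features and 3.71% of all leaders as higher. No other member feature was called in either fit. The blocked fit called no member in the other contrasts, where it called 1.48% of features with CR-1-31-B, 2.04% with both rocaglates and 0.00405% between the compounds. At an unadjusted p under 0.05 the blocked fit had 3 of the 21 member features in each contrast: with silvestrol the VIM leader and the CDS of PABPC1 and NAP1L1 (2817 of all features), with CR-1-31-B the CDS of PABPC1, TPT1 and VIM (2952), and with both the VIM leader and the CDS of PABPC1 and VIM (3398).

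The PABPC1 leader had 416, 379 and 389 CPM with silvestrol, against 376, 411 and 334 CPM in DMSO. The groups overlapped and their means, 394 ± 19.1 and 374 ± 38.3 CPM (SD, n = 3 each), differed by less than the DMSO spread (log2 0.08, 95% interval -0.58 to 0.73). The PABPC4 leader was as close, at 219, 245 and 189 CPM with silvestrol, against 206, 221 and 235 CPM in DMSO (log2 -0.02, interval -0.67 to 0.63).

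For TPT1 the leader had 229, 173 and 246 CPM with silvestrol, against 193, 158 and 214 CPM in DMSO. It was higher in each pair of equal number, by 1.19, 1.09 and 1.15 times, but the groups overlapped (log2 0.20, interval -0.51 to 0.90). This lay under the median of all leaders (0.40), of which 70.4% were above 0. The NAP1L1 leader stood at 110, 104 and 102 CPM with silvestrol, against 92.0, 107 and 113 CPM in DMSO (log2 0.01, interval -0.68 to 0.71). A change of the size of the median leader lies inside both intervals, so neither a gain of that size nor its absence was shown.

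The NPM1 leader had the largest SD of the member leaders in DMSO, and it stood at 206, 109 and 150 CPM with silvestrol, against 246, 120 and 85.9 CPM in DMSO (log2 0.05, interval -0.78 to 0.87). BTF3 had 346, 160 and 201 CPM with silvestrol, against 153, 227 and 112 CPM in DMSO (log2 0.53, interval -0.26 to 1.31, edgeR adjusted p = 0.801). Silvestrol library 1 was the highest of all BTF3 values, and library 2 lay below its DMSO counterpart. The NACA leader had 88.5, 42.1 and 34.4 CPM with silvestrol, against 77.3, 57.3 and 46.9 CPM in DMSO (log2 -0.12, interval -0.96 to 0.73), from 27 to 147 counts with silvestrol. In NPM1 and NACA the library numbered 1 was the highest of its group in both conditions.

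**Figure D2:**
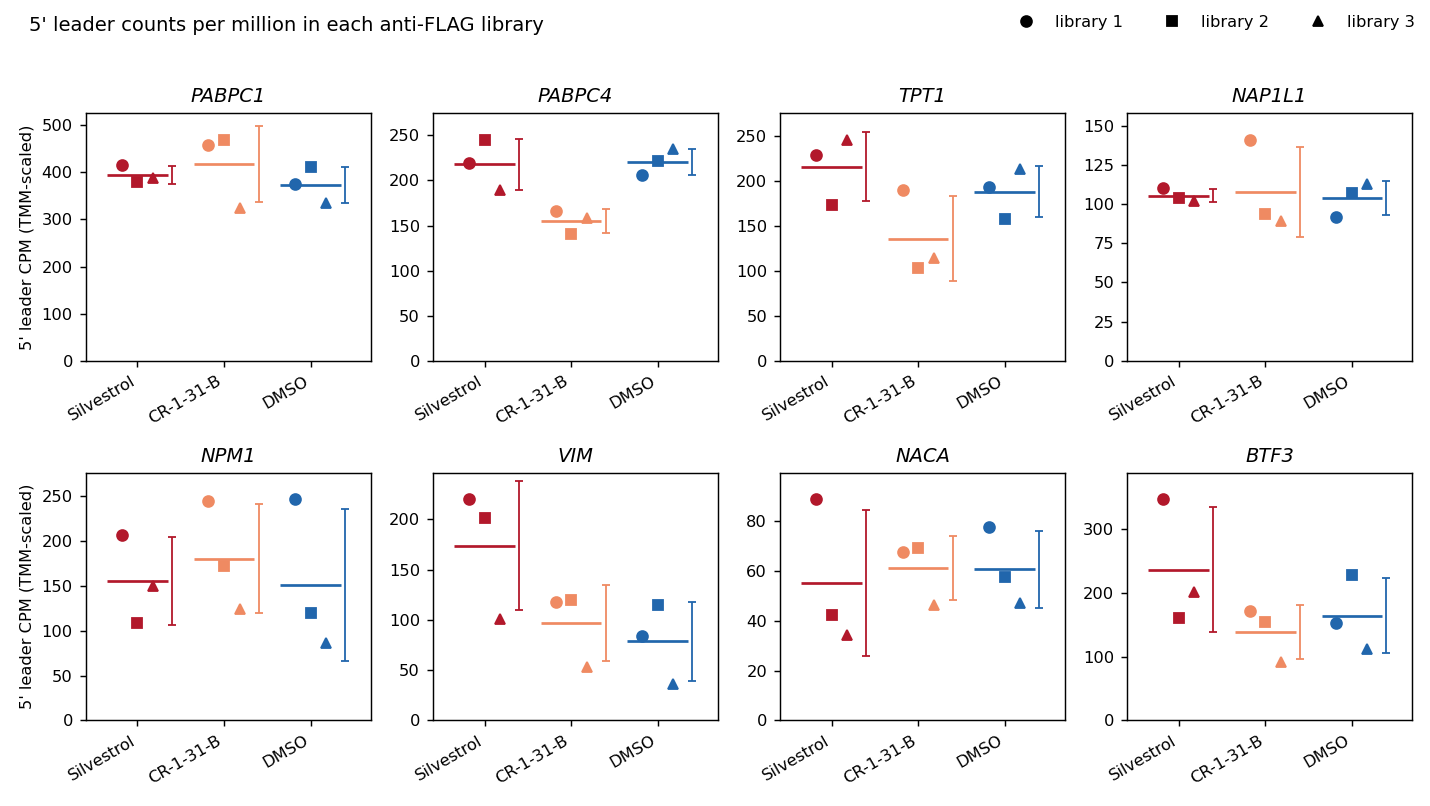
CPM in the 5' leader (y axis, TMM-scaled) for each member in the 9 anti-FLAG libraries, with points shaped by library number, horizontal lines for group means and error bars of 1 SD (n = 3). VIM stands at 101 to 220 CPM with silvestrol and 36.6 to 115 in DMSO, and PABPC4 at 141 to 166 CPM with CR-1-31-B, below the 206 to 235 of DMSO.

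The second rocaglate, CR-1-31-B, was set against the same 3 DMSO libraries. No member feature was called (edgeR, 0 of 21, where 0.291% of all features were called). An unadjusted p under 0.05 was found for 1 member feature, the VIM CDS, and for 2189 of all features. The median of the member leaders was 0.03 on the log2 scale, beside 0.35 for all leaders, and none of the 8 lay above that median. No member leader had all CR-1-31-B libraries above DMSO, as 15.9% of leaders did.

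The PABPC4 leader had 166, 141 and 158 CPM with CR-1-31-B, against 206, 221 and 235 CPM in DMSO, with no overlap. Such a full separation downward was found in 2.81% of all leaders. Its log2 fold change was -0.51 (SE 0.32, interval -1.16 to 0.15, edgeR adjusted p = 0.724), which was not called. The TPT1 leader had 190, 103 and 115 CPM with CR-1-31-B, against 193, 158 and 214 CPM in DMSO (log2 -0.47, interval -1.18 to 0.25). It was lower in 3 of 3 pairs of equal number, and the groups overlapped through CR-1-31-B library 1.

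PABPC1 had 459, 469 and 324 CPM in its leader with CR-1-31-B, against 376, 411 and 334 CPM in DMSO (log2 0.16, interval -0.49 to 0.81). In VIM the leader had 118, 120 and 53.3 CPM with CR-1-31-B, against 84.2, 115 and 36.6 CPM in DMSO (log2 0.31, interval -0.57 to 1.20). Both groups of VIM had their lowest value in library 3, and CR-1-31-B was higher in 3 of 3 pairs, by 1.41, 1.05 and 1.45 times. The remaining leaders had log2 fold changes of 0.26 (NPM1), 0.05 (NAP1L1), 0.01 (NACA) and -0.23 (BTF3), with groups that overlapped in each. NPM1 had 244, 172 and 124 CPM with CR-1-31-B, against 246, 120 and 85.9 CPM in DMSO, and the widest spread of these 4. NAP1L1 had 141, 93.4 and 89.2 CPM with CR-1-31-B, against 92.0, 107 and 113 CPM in DMSO. For NACA the values were 67.4, 69.2 and 46.3 CPM with CR-1-31-B, against 77.3, 57.3 and 46.9 CPM in DMSO, and both groups were lowest in library 3. BTF3 had 172, 154 and 91.5 CPM with CR-1-31-B, against 153, 227 and 112 CPM in DMSO.

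**Figure D3:**
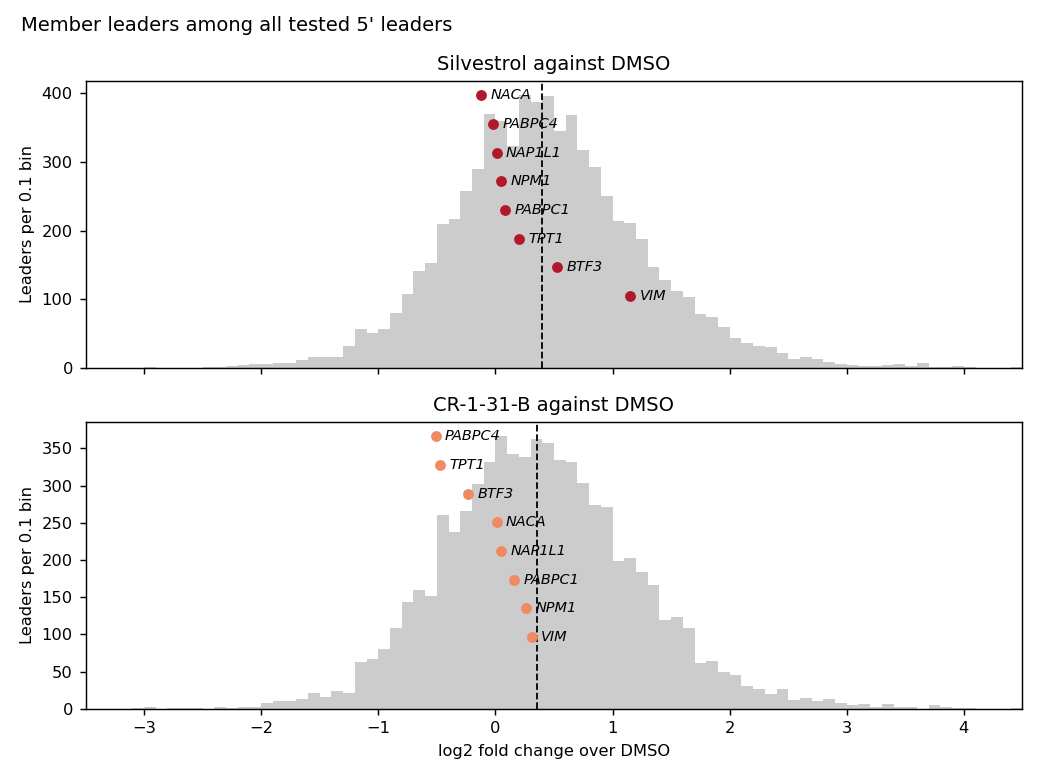
Log2 fold changes over DMSO of all 7122 tested 5' leaders (grey histogram, x axis; y axis, leaders per 0.1 bin), with the 8 members as coloured points at an arbitrary height and the median of all leaders as a dashed line (0.40 with silvestrol, 0.35 with CR-1-31-B). With silvestrol VIM and BTF3 lie above the dashed line, and with CR-1-31-B all 8 members lie below it.

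Pooling both rocaglates (6 libraries against 3) left 0 of 21 member features called by edgeR, where 0.49% of all features were called; 1 member feature, the PABPC1 CDS, and 2479 of all features had an unadjusted p under 0.05. The median of the member leaders was 0.08, beside 0.36 for all leaders. No member leader had all 6 rocaglate libraries above DMSO, as 8.4% of leaders did. The VIM leader differed by 0.73 on the log2 scale (SE 0.38, edgeR adjusted p = 0.552) and lay above all DMSO libraries in 4 of 6 rocaglate libraries.

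In the coding sequences, 8 of 8 members lay below the class median with silvestrol and 6 of 8 with CR-1-31-B. With silvestrol 8 of 8 member CDS had a log2 fold change under 0, with a median of -0.44 beside -0.12 for all 8413 CDS, of which 41.2% were above 0. With CR-1-31-B 7 of 8 were under 0, with a median of -0.37 beside -0.03 for all CDS, of which 48.0% were above 0, and PABPC4 and BTF3 lay above that class median. None was called. CPM are relative to the library, so a lower value is not by itself less binding.

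The PABPC1 CDS had 50, 59.1 and 44.6 CPM with silvestrol and 60.8, 58.8 and 64.9 CPM with CR-1-31-B, against 78.3, 122 and 98.5 CPM in DMSO. All 6 rocaglate libraries lay below all 3 DMSO libraries, as in 2.92% of all CDS. Its log2 fold change was -0.96 with silvestrol (SE 0.35, interval -1.69 to -0.23, edgeR adjusted p = 0.391) and -0.69 with CR-1-31-B (SE 0.35, adjusted p = 0.595), and -0.83 for both (adjusted p = 0.282). The VIM CDS had 72.3, 50 and 45.9 CPM with silvestrol and 66.8, 40.7 and 27.8 CPM with CR-1-31-B, against 80.3, 89.2 and 71.0 CPM in DMSO. Its CR-1-31-B libraries were all below DMSO (log2 -0.81, edgeR adjusted p = 0.563), while silvestrol library 1 was not (log2 -0.50).

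The TPT1 CDS had 108, 76.1 and 85.7 CPM with CR-1-31-B, against 143, 121 and 139 CPM in DMSO, with no overlap (log2 -0.57, edgeR adjusted p = 0.687), and -0.22 with silvestrol. Full separation downward with CR-1-31-B thus held for the CDS of PABPC1, VIM and TPT1, and in 7.38% of all CDS. With silvestrol it held for PABPC1 alone among the members, and in 8.64% of all CDS. NAP1L1 had a CDS log2 fold change of -0.94 with silvestrol (interval -1.91 to 0.02) and -0.30 with CR-1-31-B. The others were -0.68 and -0.01 for PABPC4, -0.37 and 0.11 for BTF3, -0.21 and -0.24 for NACA and -0.18 and -0.43 for NPM1, with silvestrol first in each pair.

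The 3'UTRs of 5 members were tested, and none was called. VIM had 10.8, 5.69 and 5.10 CPM with silvestrol and 7.27, 6.92 and 3.48 CPM with CR-1-31-B, against 16.6, 13.8 and 11.4 CPM in DMSO. All 6 rocaglate libraries were below DMSO, as in 3.62% of all 3'UTRs (10.9% for silvestrol alone and 9.59% for CR-1-31-B alone), on 3 to 18 counts a rocaglate library (log2 -1.06 for both rocaglates, SE 0.68, edgeR adjusted p = 0.661). The others had log2 fold changes of -1.02 (NPM1), -0.47 (BTF3), 0.02 (NAP1L1) and 0.28 (TPT1) with silvestrol, and of -0.65, -0.03, -0.39 and 0.09 in the same order of genes with CR-1-31-B. Of the 3 that were not tested, the PABPC1 3'UTR had 0 to 15 counts in the rocaglate libraries and 6 to 16 in DMSO. That of PABPC4 had 3 to 10 counts in the rocaglate libraries and 4 to 11 in DMSO, and that of NACA had at most 3 counts in any anti-FLAG library.

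The ratio of leader to CDS counts within a gene does not depend on library size or on the RNA level of that gene. It was compared with limma on log2 ratios (pseudocount 0.5) over the 5537 genes whose leader and CDS were both tested. No member passed an adjusted p under 0.05, where 0.452% of genes did with silvestrol, 0.0903% with CR-1-31-B and 1.16% with both. At an unadjusted p under 0.05 were VIM and PABPC1 in each of the 3 comparisons, and 862, 662 and 892 of all genes.

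VIM had 3.04, 4.02 and 2.19 leader counts per CDS count with silvestrol and 1.77, 2.96 and 1.92 with CR-1-31-B, against 1.05, 1.29 and 0.516 in DMSO and 0.147 in the input. All 6 rocaglate libraries lay above the DMSO libraries, as in 8.38% of the 5537 genes (19.8% for silvestrol alone and 14.6% for CR-1-31-B alone). The log2 ratio differed by 1.74 with silvestrol (SE 0.48, interval 0.71 to 2.78, limma adjusted p = 0.116) and by 1.27 with CR-1-31-B (SE 0.48, interval 0.24 to 2.30, adjusted p = 0.333). For both rocaglates it was 1.51 (SE 0.42, limma adjusted p = 0.0979), above that of 86.0% of genes, whose median was 0.46.

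PABPC1 had 8.31, 6.40 and 8.71 leader counts per CDS count with silvestrol and 7.54, 7.97 and 5.00 with CR-1-31-B, against 4.80, 3.37 and 3.40 in DMSO and 0.841 in the input. Here too the groups did not overlap, which puts PABPC1 among the same 8.38% of genes, with 5.00 for CR-1-31-B library 3 close to 4.80 for DMSO library 1. The difference was 1.02 with silvestrol (SE 0.33, limma adjusted p = 0.166), 0.82 with CR-1-31-B (SE 0.33, adjusted p = 0.368) and 0.92 for both (SE 0.29, adjusted p = 0.134). In PABPC1 the CDS values did not overlap and the leader values did.

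Seen as shares, the leader took 72.6%, 78.3% and 66.4% of VIM counts with silvestrol and 61.5%, 71.6% and 63.0% with CR-1-31-B, against 46.5%, 52.7% and 30.8% in DMSO. The mean difference for both rocaglates, 25.6 percentage points, was larger than in 96.6% of 2707 genes with at least 50 counts in every anti-FLAG library. PABPC1 had 87.6%, 86.5% and 87.6% with silvestrol and 87.7%, 87.7% and 81.4% with CR-1-31-B, against 80.0%, 76.2% and 74.3% in DMSO. These 2 of 8 members had all 6 rocaglate libraries above DMSO, as did 11.7% of the genes. With silvestrol alone the same 2 were separated, where 25.3% of genes were, and with CR-1-31-B alone again these 2, where 17.7% were.

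The other members had log2 ratio differences with silvestrol of 0.97 (BTF3), 0.95 (NAP1L1), 0.45 (PABPC4), 0.42 (TPT1), 0.26 (NPM1) and 0.02 (NACA), beside a median of 0.55 over all genes. With CR-1-31-B they were 0.68 (NPM1), 0.33 (NAP1L1), 0.28 (NACA), 0.07 (TPT1), -0.37 (BTF3) and -0.67 (PABPC4), beside a median of 0.36. PABPC4 and BTF3 thus had opposite signs with the 2 compounds, which share their DMSO libraries.

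**Figure D4:**
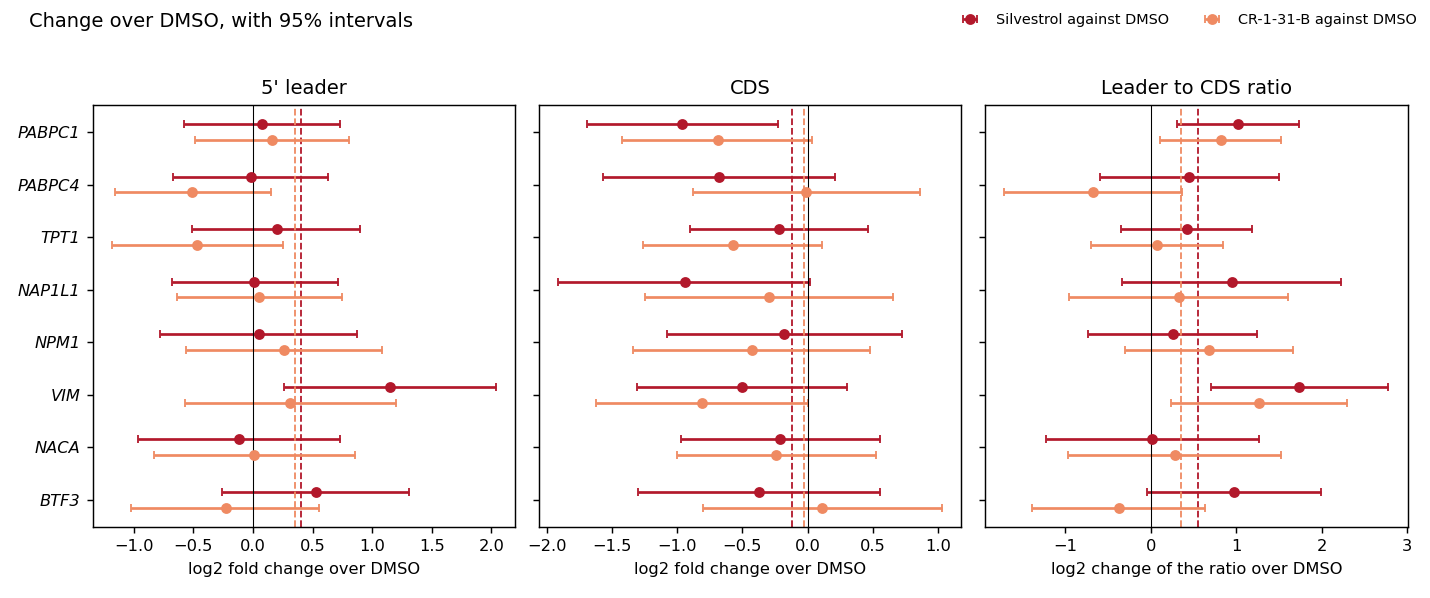
Log2 differences from DMSO (x axes) of the leader, of the CDS and of the leader to CDS ratio for each member (rows), with silvestrol in dark red above CR-1-31-B in orange; bars are 95% intervals and dashed lines the medians of all leaders, all CDS and all genes. The ratio intervals of VIM and PABPC1 lie above 0 with both compounds, and PABPC4 and BTF3 have ratio differences under 0 with CR-1-31-B.

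CR-1-31-B against silvestrol compares the 2 rocaglates directly at 20 nM and 1 h. EdgeR called 0 of 21 member features and 0 of all features (0% of 24713), with 0 member features and 609 of all features at an unadjusted p under 0.05. DESeq2 and limma voom also called 0 features. With the replicate block, 3 member leaders and 1043 of all features had an unadjusted p under 0.05 in edgeR. These were the leaders of VIM, BTF3 and TPT1, each lower with CR-1-31-B in 3 of 3 pairs of equal number, and none was called after adjustment (edgeR adjusted p = 1.0 for each). The intervals show what could have been missed. The VIM leader had 118, 120 and 53.3 CPM with CR-1-31-B, against 220, 201 and 101 CPM with silvestrol, a log2 difference of -0.83 (SE 0.42, interval -1.71 to 0.04, edgeR adjusted p = 1.0). By edgeR, the BTF3 leader differed by -0.76 (interval -1.55 to 0.03) and the TPT1 leader by -0.66 (interval -1.37 to 0.05).

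In PABPC4 the leader had 166, 141 and 158 CPM with CR-1-31-B, against 219, 245 and 189 CPM with silvestrol, without overlap, as in 5.05% of all leaders (log2 -0.49, interval -1.14 to 0.16). Its CDS had 80.0, 50.2 and 76.5 CPM with CR-1-31-B, against 41.6, 38.7 and 49.7 CPM with silvestrol, again without overlap, as in 6.38% of all CDS (log2 0.67, interval -0.22 to 1.56). The leader to CDS ratio of PABPC4 differed by -1.12 on the log2 scale (SE 0.49, limma adjusted p = 0.906) and that of BTF3 by -1.35 (SE 0.47, limma adjusted p = 0.906). By share, both genes had all CR-1-31-B libraries below all silvestrol libraries, as did 6.8% of the 2707 genes. For BTF3 the leader share was 73.0%, 76.4% and 59.0% with CR-1-31-B, against 84.7%, 88.7% and 83.6% with silvestrol. No ratio was called in this comparison (0% of 5537 genes; 2 members and 263 genes at an unadjusted p under 0.05).

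The leaders of PABPC1 (0.08), NAP1L1 (0.04), NACA (0.13) and NPM1 (0.21) had log2 differences between the compounds above 0, and their intervals hold values on both sides of 0: -0.57 to 0.74 for PABPC1, -0.65 to 0.74 for NAP1L1, -0.71 to 0.97 for NACA and -0.61 to 1.04 for NPM1. The TPT1 CDS differed by -0.35 (interval -1.04 to 0.33).

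Other genes of the TOP pathway and a list of abundant mRNAs give the setting for these values. The lists were not matched to the members by abundance. Of 75 tested ribosomal protein leaders, 4 were called higher and 0 lower with silvestrol (RPL18, RPS15, RPL41 and RPL24, with log2 fold changes of 2.23, 1.90, 2.06 and 1.87), and 2 with CR-1-31-B (RPL18, 2.62, and RPL24, 1.89), on the edgeR test over all features. The median over the 75 was -0.04 under silvestrol and -0.22 under CR-1-31-B. With silvestrol 20 of the 75 had an unadjusted p under 0.05, and DESeq2 called 7, voom 4 and the blocked fit 8. Of all 24713 features 1999 had such a p, and DESeq2 called 308, voom 74 and the blocked fit 316. These counts cover all classes. Of leaders alone the blocked fit called 3.71% as higher with silvestrol. With CR-1-31-B 19 had an unadjusted p under 0.05, and DESeq2 called 5, voom 4 and the blocked fit 4 higher and 2 lower. Of all 24713 features 2189 had such a p with CR-1-31-B, and DESeq2 called 335, voom 62 and the blocked fit 365. Of 9 tested leaders of TOP translation factors 0 were called by edgeR with either compound, and 3 had an unadjusted p under 0.05 with each; DESeq2 and the blocked fit called 1 with CR-1-31-B and voom 0. Their medians were -0.31 with silvestrol and 0.16 with CR-1-31-B. Among 13 leaders of genes that act on TOP mRNAs or in their signalling, LARP1, MTOR and RPTOR included, 1 was called with silvestrol, that of EIF4EBP1 (log2 2.66, SE 0.57, edgeR adjusted p = 0.0467), which encodes the cap-binding repressor 4E-BP1. DESeq2 and the blocked fit called 2 of the 13 and voom 0. With CR-1-31-B edgeR called 0 of the 13, with 3 at an unadjusted p under 0.05, while DESeq2 and the blocked fit called 2 and voom 0. Their medians were 0.20 with silvestrol and 0.37 with CR-1-31-B.

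Abundant mRNAs listed as non-TOP, such as those of actin, tubulin and glycolytic enzymes, had leader medians of 0.14 under silvestrol and -0.05 under CR-1-31-B over 22 leaders, and edgeR called 0 of them. They were listed by name, and their starts were not checked for a tract. With silvestrol 8 of the 22 had an unadjusted p under 0.05, and DESeq2 called 5, voom 1 and the blocked fit 6, all higher in the blocked fit. With CR-1-31-B 1 had an unadjusted p under 0.05, and DESeq2 and voom called 0 and the blocked fit 1. The counts over all features given above for the ribosomal proteins are the background here as well. The medians of the members, 0.06 and 0.03, thus stood among those of TOP and non-TOP lists alike, and all but the regulators with CR-1-31-B lay under the medians of all leaders. The CDS medians with silvestrol were -0.44 for the members, -0.53 for the TOP translation factors, -0.38 for the ribosomal proteins and -0.63 for the abundant mRNAs listed as non-TOP. The RPL41 CDS went against its list's median and was called higher with silvestrol (log2 2.66, edgeR adjusted p = 0.00717) and CR-1-31-B (2.25, adjusted p = 0.0173).

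The tested leaders were also grouped by their annotated start. Of 5657 tested leaders with a promoter in the table, 459 begin with a C and at least 4 pyrimidines. Their median log2 fold change under silvestrol was 0.28, beside 0.42 for the 5198 other leaders. Under CR-1-31-B the medians were 0.22 for the pyrimidine starts and 0.38 for the others. EdgeR called 1.74% of the pyrimidine starts and 0.77% of the others with silvestrol, and 1.53% and 0.77% with CR-1-31-B. Without the members and the ribosomal proteins, the 411 remaining pyrimidine starts had medians of 0.33 with silvestrol and 0.27 with CR-1-31-B, and 1.22% were called with each.

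Close relatives of the members were mostly too low to test: of 17 paralogs in the files, 4 leaders, 5 CDS and 3 3'UTRs were tested, and edgeR, DESeq2 and voom called 0 with either compound. Of these features 0 had an unadjusted p under 0.05 with silvestrol, where 1999 of all features did. With CR-1-31-B 1 leader and 1 3'UTR did, where 2189 of all features did. BTF3L4, a paralog of BTF3, had 4 to 27 counts in its leader in the anti-FLAG libraries and 19 to 70 in its 3'UTR. PABPC1L had 8 to 44 counts in its CDS. Pseudogene rows that carry a member's symbol, 3 in number, held 104 counts in all anti-FLAG libraries together, mostly PABPC1P2 (95), against 21997 in the 3 parts of the 8 members. How reads that match both a member and a pseudogene were assigned was not given in the sources used here, so member counts are uncertain to that extent. The antisense rows TPT1-AS1 and VIM-AS1 held 160 and 12 anti-FLAG counts, and without a stated use of strand they cannot be told apart from sense reads. NPM1 also had 4 to 29 counts a library in a class named transcript, with 43 with silvestrol, 33 with CR-1-31-B and 38 in DMSO summed over 3 libraries.

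The mean centred profile of the 8 member leaders over the 9 anti-FLAG libraries ran from -0.47 (CR-1-31-B library 3) to 0.49 (silvestrol library 1) on the log2 CPM scale. Among 1426 other leaders with a mean of at least 50 CPM, those of TSPAN3 (Pearson r = 0.94), POLR2F (0.938) and RANGAP1 (0.923) followed it most closely over the 9 libraries, which share depth and batch with the members. In all 3 groups of the profile library 1 was the highest and library 3 the lowest.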

How the data were processed

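Read counts per gene symbol and class (5' leader, CDS, 3'UTR and 4 other classes) were deposited by the authors for 10 libraries, 1 file each. The deposited counts are not normalized, per the file headers and values. The submitters' processing notes name cutadapt, a read trimmer, and Bowtie 1.1, an aligner. Of the genome build, annotation, duplicate handling, use of strand and counting rule, each is not given in the sources used here.

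The 1 blank line in each file was left out. The 9 anti-FLAG libraries were fitted together with edgeR 4.0.16 (R 4.3.3), using filterByExpr by group, TMM factors, quasi-likelihood tests and Benjamini-Hochberg adjustment over 24713 features. CPM in these comparisons use TMM-scaled library sizes, and CPM against the input use all counts. Leader to CDS ratios were tested with limma 3.58.1. DESeq2 1.42.0 and limma voom were alternatives. The scripts were run on simulated counts with known changes. Those counts were drawn without a link between libraries of equal number, and the outcome is not given here. The run is thus no measure of what the tests could miss in these data. The labels do not say whether libraries came from separate cultures, so p-values measure the spread between these libraries, which may be technical.

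Library numbers were checked for pairing by the correlation of deviations from the group means: the 9 same-number pairs gave 0.102 to 0.263, and the 18 others -0.203 to 0.0163. The numbers were therefore read as pairs in the pairwise values and in the blocked fit, which comes from the data and not from the labels. The main fits were unpaired. Their SEs, intervals and adjusted p-values do not use the library numbers. The blocked value is printed where it changes a call, and in part elsewhere. Libraries of 1 group differed by more than sampling noise (chi-square of 3.97 to 9.07 per degree of freedom).

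The members and lists were chosen with earlier results of these data known. All 8 members were named whether called or not, and of other lists those called over all features. For likeness the 3 leaders with the highest Pearson r were named.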

Additional observations from a re-analysis of the deposited data

How the results depend on the processing

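No member feature was called in any contrast under the other scalings, filters and tools, without any 1 library, or with only the groups compared, and none by leader to CDS ratio under its alternatives. The exception was silvestrol against DMSO with the replicate block, where 1 member feature, the VIM leader (1.20), was called; with the block no other call on a member changed. Over all features the counts moved more: with silvestrol 63, and 4 to 100 without 1 library and up to 316 with the block; with CR-1-31-B 72, and 0 to 226 without 1 library and up to 365 with the block; with both 121, and 7 to 287 without 1 library and up to 531 with DESeq2. CR-1-31-B against silvestrol gave 0, and 7 with no filter. Genes called by ratio were 25 with silvestrol (0 to 94), 5 with CR-1-31-B (0 to 34) and 64 with both (7 to 139). TMM factors from CDS features moved the median of all features by 0.11 with silvestrol. All 8 leaders stayed at least 2-fold above the input with leader, CDS and 3'UTR counts as the denominator (2.09 to 4.72) and without any 1 DMSO library, and the 3 most alike leaders were the same with a prior count of 0.5.

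Values that changed sign were not called in any fit, and the cause was not tested. With silvestrol the PABPC4 leader was 0.10 with TMM from CDS, 0.00 with DESeq2 size factors, 0.02 with no filter and 0.01 with DESeq2, and the NAP1L1 3'UTR was 0.00 or just below (-0.00) with voom. With CR-1-31-B the BTF3 3'UTR was 0.02 with TMM from CDS, 0.00 with no filter and 0.12 with the replicate block. The PABPC4 CDS was 0.01, 0.04, 0.16, 0.08 and 0.00 with TMM from CDS, no filter, voom, the block and only the groups compared. Between the compounds, TMM from CDS gave -0.06 for the NAP1L1 leader and -0.02 for PABPC1. With CDS plus 3'UTR as denominator the ratio change was -0.27 for TPT1 with CR-1-31-B and 0.12 for NAP1L1 between the compounds.

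Without 1 library, the ranges that crossed 0 with silvestrol were, for leaders, -0.67 to 0.16 (NACA), -0.03 to 0.09 (NAP1L1), -0.22 to 0.66 (NPM1) and -0.10 to 0.09 (PABPC4); for CDS, -0.38 to 0.05 (NACA), -0.85 to 0.02 (BTF3) and -0.49 to 0.35 (NPM1); and for 3'UTRs, -0.32 to 0.24 (NAP1L1) and -0.99 to 0.21 (BTF3). With CR-1-31-B they were, for leaders, -0.13 to 0.28 (NACA), -0.20 to 0.20 (NAP1L1), -0.43 to 0.11 (BTF3), -0.03 to 0.86 (NPM1) and -0.01 to 0.73 (VIM); for CDS, -0.85 to 0.12 (NAP1L1), -0.02 to 0.50 (BTF3), -0.69 to 0.08 (NPM1) and -0.36 to 0.37 (PABPC4); and for 3'UTRs, -0.32 to 0.64 (BTF3) and -0.12 to 0.36 (TPT1). Between the compounds the leaders gave -0.14 to 0.69 (NACA), -0.21 to 0.17 (NAP1L1), -0.08 to 0.49 (NPM1) and -0.02 to 0.24 (PABPC1). The CDS between the compounds gave -0.29 to 0.17 (NACA) and -0.44 to 0.06 (NPM1), and the 3'UTRs -0.43 to 0.04 (TPT1) and -0.52 to 0.16 (VIM). Ratio changes gave -0.71 to 0.47 (NACA) with silvestrol; -0.04 to 0.50 (NACA), -0.10 to 0.88 (NAP1L1), -0.67 to 0.02 (BTF3) and -0.06 to 0.15 (TPT1) with CR-1-31-B; and -0.19 to 0.99 (NACA), -0.04 to 0.74 (NPM1) and -0.34 to 0.01 (PABPC1) between the compounds. With both rocaglates the leaders gave -0.32 to 0.22 (NACA), -0.09 to 0.13 (NAP1L1), -0.05 to 0.49 (BTF3) and -0.11 to 0.76 (NPM1). The TPT1 leader reached 0.0 there (from -0.3). With both, the CDS gave -0.37 to 0.26 (BTF3), -0.57 to 0.22 (NPM1) and -0.7 to 0.04 (PABPC4). The 3'UTRs gave -0.53 to 0.04 (NAP1L1) and -0.54 to 0.42 (BTF3), and the ratios -0.21 to 0.37 (NACA) and -0.51 to 0.48 (PABPC4). The VIM leader with silvestrol ran from 0.82 to 1.56 without 1 library.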
